A study of Mus musculus with 6 samples.

Results

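The promoter contacts described here are those of 38 genes of the Wnt signalling pathway in mouse embryonic stem cells (mESCs), out of 21202 genes named in the HiCap lists. The genes were chosen by symbol and not by any measured value, though earlier results of these data were known at the choice. They comprised 19 Wnt ligand genes, 11 receptor genes (the Fzd genes with Lrp5 and Lrp6) and 8 intracellular genes (Axin1, Axin2, Ctnnb1, Apc, Gsk3b, Lef1, Tcf7 and Tcf7l2). Fzd10 was not listed under its own name. The MboI fragment that holds its annotated start site was listed as the promoter of 5930412G12Rik, with 8 regions listed by replicate 1, 25 by replicate 2 and 1 by both.

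The series held 6 samples of the R1 mESC line, 2 of HiCap, 2 of Hi-C and 2 of Capture-C. All were grown with serum and leukaemia inhibitory factor on gelatin and the labels name no treatment, so the series has 1 line and 1 condition. HiCap is Hi-C with a 4-base cutter (MboI) followed by capture of promoter fragments with probes, and Hi-C was the same ligation without the capture. Capture-C was not analysed here.

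Each entry of a list paired a gene's promoter fragment with a distal region, the fragment found ligated to it, and no entry carried a read number. The HiCap list of replicate 1 had 499874 pairs of promoter and distal region, and that of replicate 2 had 554081. The Hi-C list, in which both replicates were pooled, had 74814. The lists were unlike in reach, since 19.4% of pairs spanned more than 1 Mb in replicate 2 and 0.371% did in replicate 1. A pair was taken as called when the same gene, promoter fragment and distal region stood in both HiCap lists. In the numbers of regions per gene, a region paired with several promoter fragments of that gene counts once for each, unless distinct regions are named. With 2 libraries of 1 condition no test over samples was possible, so the values are descriptions, and the identity of the cells could not be checked against marker genes in lists of contacts.

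Wnt proteins are secreted, lipid-modified ligands that bind a Frizzled receptor together with the co-receptor LRP5 or LRP6. Without ligand, a cytoplasmic complex that holds Axin, APC and the kinase GSK3 marks beta-catenin, the product of Ctnnb1, for degradation. With ligand this complex is held back and beta-catenin reaches the nucleus, where it joins DNA-binding factors of the TCF and LEF family. In mESCs the pathway is known for its part in self-renewal, and several Wnt genes lie as neighbouring pairs in the genome.

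Of the called distal regions, 5 short ones are shown whole, from the plus strand of mm9, as examples of the fragments behind a contact. The region of Wnt10a is shown because a region of the neighbour Wnt6 begins at its next base, the Fzd2 regions because they adjoin, that of Tcf7 because Hi-C listed it too, and that of Wnt9a as a short fragment far from its promoter. Capitals mark the MboI site at which each fragment begins.
Wnt10a intron, 8.69 kb downstream, chr1:74846681-74846890: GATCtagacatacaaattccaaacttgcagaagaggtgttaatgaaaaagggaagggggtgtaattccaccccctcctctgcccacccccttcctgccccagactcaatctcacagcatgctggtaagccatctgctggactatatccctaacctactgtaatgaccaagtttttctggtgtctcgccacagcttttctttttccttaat
Fzd2 upstream, 4.25 kb, chr11:102461742-102461965: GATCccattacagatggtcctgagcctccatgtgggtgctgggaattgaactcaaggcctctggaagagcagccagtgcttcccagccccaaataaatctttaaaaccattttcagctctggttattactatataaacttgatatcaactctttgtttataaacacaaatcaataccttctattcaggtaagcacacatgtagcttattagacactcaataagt
Fzd2 upstream, 4.07 kb, chr11:102461966-102462104: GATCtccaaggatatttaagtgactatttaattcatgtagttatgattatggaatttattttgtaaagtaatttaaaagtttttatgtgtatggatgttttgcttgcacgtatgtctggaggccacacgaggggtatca
Tcf7 upstream, 13.8 kb, chr11:52110014-52110269: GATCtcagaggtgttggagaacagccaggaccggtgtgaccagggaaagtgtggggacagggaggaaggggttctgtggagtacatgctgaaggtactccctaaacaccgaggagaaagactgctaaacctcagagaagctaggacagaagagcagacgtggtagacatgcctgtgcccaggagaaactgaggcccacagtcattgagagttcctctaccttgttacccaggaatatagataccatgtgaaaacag
Wnt9a in an intron of Zfp867, 163 kb downstream, chr11:59283646-59283706: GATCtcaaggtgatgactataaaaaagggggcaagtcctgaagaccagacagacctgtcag

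TCF and LEF factors bind DNA around a core that is commonly written CTTTGAT, and this was looked for on both strands, where the other strand reads ATCAAAG. Of the 225 distinct distal regions called for the 38 genes, 21 held it (9.33%). Over all 71923 called distal regions the share was 8.66%. With the share of all called regions in each of 4 length classes, 20.4 of the 225 regions would hold it. The Wnt pathway regions thus held the core about as often as others of their length. Of the 40 regions of at most 300 bases, 0 had a match, which allows a share of up to 7.50%, and 2.87% of all called regions of that length had one. A match is a description of the letters and not a bound site. In the stretches shown, from 1 region of each of 6 genes, the core is in capitals with up to 20 bases either side, again on the plus strand of mm9.
Wnt6 intron, chr1:74823260-74823306: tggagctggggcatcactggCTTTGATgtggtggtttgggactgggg
Wnt9a upstream, chr11:59113143-59113189: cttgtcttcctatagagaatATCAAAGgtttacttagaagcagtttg
Fzd2 downstream, chr11:102498752-102498798: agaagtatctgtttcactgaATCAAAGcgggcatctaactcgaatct
Fzd5 upstream, chr1:64800242-64800288: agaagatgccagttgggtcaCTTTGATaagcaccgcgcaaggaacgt
Fzd7 upstream, chr1:59507495-59507522: gATCAAAGagcatggaggttccagtagg
Lrp6 intron, chr6:134509602-134509648: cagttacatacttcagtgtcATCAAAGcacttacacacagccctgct
In the Fzd7 region the match overlaps the MboI site at the fragment's start, since that site followed by AAAG spells the core on the other strand. Of the 21 regions with a match, 6 were of ligands, 12 of receptors and 3 of intracellular genes.

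Of the 38 genes, 28 had a called contact, against 60.7% of all listed genes. Among the ligands 11 of 19 did (57.9%, exact binomial 95% confidence interval 33.5 to 79.7%). Among the receptors 10 of 11 did (90.9%, 58.7 to 99.8%), and among the intracellular genes 7 of 8 (87.5%, 47.3 to 99.7%). The intervals cover counting error only, those of the 3 classes overlap, and each includes the share of all genes. In all, 227 pairs were called, 86 for ligands, 104 for receptors and 37 for intracellular genes. The median gene had 1 called region among ligands, 6 among receptors and 4.5 among intracellular genes, and 1 among all listed genes.

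The called regions were unevenly spread. Wnt9a, Fzd2, Wnt6, Fzd5, Fzd9 and Tcf7 held 141 of the 227 pairs (62.1%). Over all listed genes the median was 1 called region and the most was 162, so the spread was uneven there too. At least 10 called regions were found for 8 of the 38 genes (21.1%), against 14.2% of all listed genes. These were 2 ligands, 5 receptors and 1 intracellular gene. A single called region was found for 6 genes. The order of the genes was broadly alike in the separate lists, with a Spearman rho of 0.77 between the numbers of replicate 1 and replicate 2 over the 38 genes, which share the capture and the genome's fragments. The number of called regions showed little relation to the mean length of a gene's promoter fragments (rho 0.09), their G+C content (rho 0.16) or the number of other captured genes within 100 kb (rho 0.07).

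**Figure D1:**
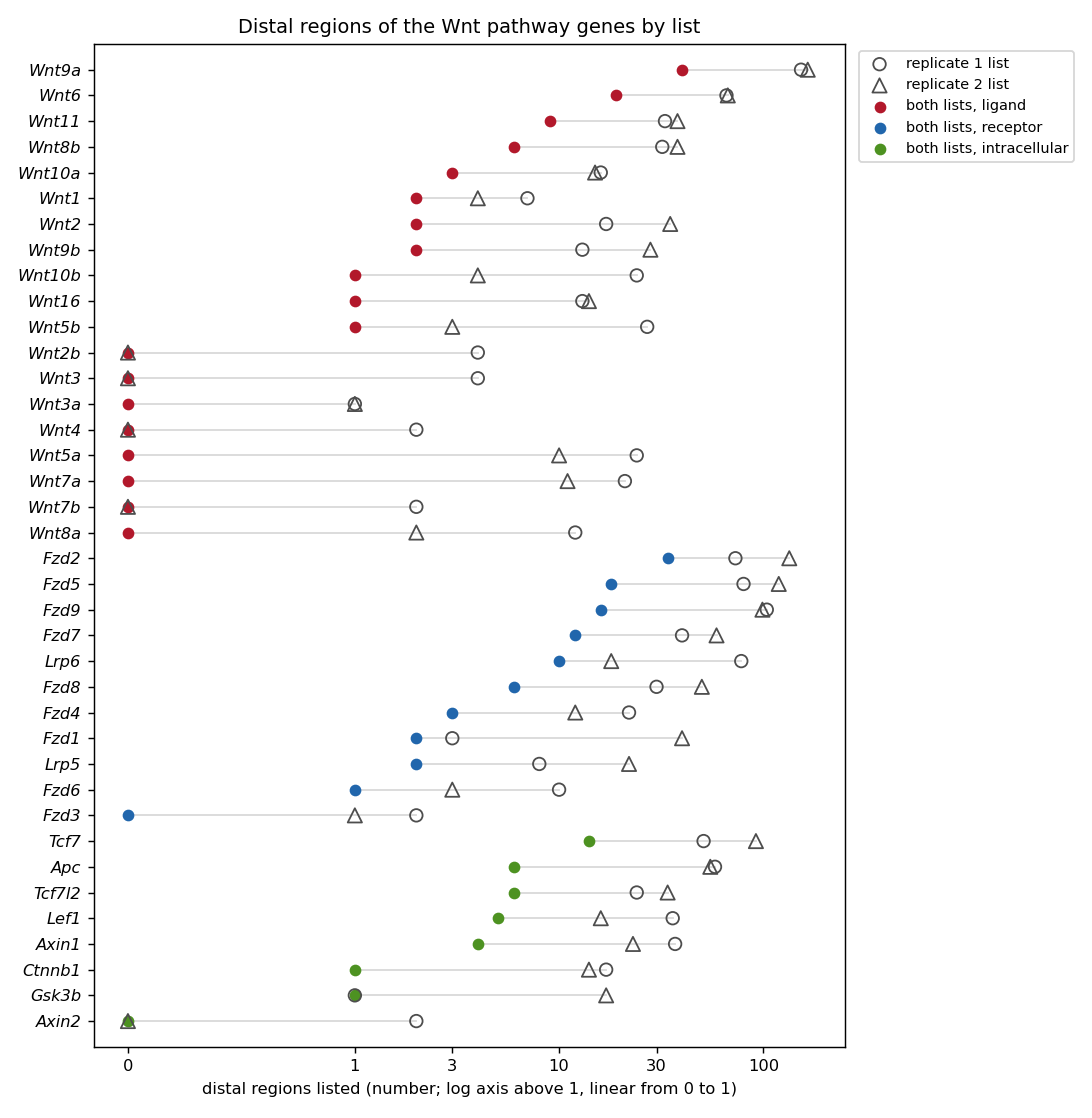
Number of distal regions listed for each of the 38 genes (horizontal axis, log above 1 and linear from 0 to 1) in replicate 1 (open circles), replicate 2 (open triangles) and both (filled, by class). Wnt9a, at 40, has the most in both lists, while 8 ligands, Fzd3 and Axin2 are at 0.

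Among the ligands, Wnt9a had by far the most contacts. Replicate 1 listed 153 regions for it and replicate 2 listed 165, of which 40 were called. Of all listed genes, 1.20% had as many or more. The gene held 46.5% of the ligand pairs, and without it the other 18 ligands had 46 pairs and a median distance of 9.93 kb in place of 16.3 kb.

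The regions of Wnt9a reached from 2.44 to 196 kb, with 14 beyond 100 kb, which is most of the 17 such pairs of ligands. The 9 regions within the gene lay up to 26.0 kb downstream. Farther downstream came 7 between Wnt9a and 100 kb, in the stretch before Snap47, and 13 beyond 100 kb. Of the far ones, 4 lay in Snap47, 2 in Jmjd4, 1 in Zfp867, 3 in Zkscan17 and 3 between genes. Upstream there were 11 regions, 4 of them past the promoter of the neighbour Wnt3a. Another gene contacted 5 of the 40 regions as well, namely A230051G13Rik, Prss38, 4933439C10Rik and, for a pair of regions, Jmjd4.

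Wnt6 followed with 66 regions in replicate 1, 67 in replicate 2 and 19 called, a number that 5.77% of genes reached. They lay 2.79 to 86.6 kb from the promoter, with 6 in introns of Wnt6. The farthest, at chr1:74904883-74905205, was in the Hi-C list and was also linked to Cdk5r2 and Fev. Wnt11, which is best known for signalling without beta-catenin, had 33 and 38 regions in the replicates and 9 called. Of these, 4 lay 14.7 to 24.2 kb upstream in 2 runs of adjoining fragments, and 3 of the 4 were in the Hi-C list, which makes Wnt11 the ligand with the most Hi-C matches. Wnt8b had 32 and 38 regions and 6 called, of which 5 lay within 13.8 kb. The other overlapped Scd1 at 99.5 kb and was linked to Scd1 and Ndufb8 as well.

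Other ligands had few called contacts. Wnt10a had 16 and 15 regions with 3 called, Wnt2 had 17 and 35 with 2, and Wnt9b had 13 and 28 with 2, all within 12.8 kb. The 1 called region of Wnt16 (13 and 14 in the replicates) lay 45.7 kb away in an intron of Fam3c, and that of Wnt5b (27 and 3) lay 16.7 kb upstream where the annotated Fbxl14 and Wnt5b genes overlap, and was linked to Fbxl14 and Wnk1 too.

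No called contact was found for 8 ligands. Wnt2b had 4 regions in replicate 1 and 0 in replicate 2, Wnt3 had 4 and 0, Wnt4 2 and 0, and Wnt7b 2 and 0. Wnt3a, a ligand widely used to activate beta-catenin signalling, had 1 and 1. These 5 thus had at most 4 regions in either list. Wnt5a, which often signals without beta-catenin, had 24 and 10, Wnt7a 21 and 11, and Wnt8a 12 and 2, with no pair in common. Over the 10 genes of all classes without a call, the median was 3 regions in replicate 1 and 0.5 in replicate 2, against 28.5 and 31 over the 28 with one. The promoter fragments of these 10 were 387 to 3093 bp long (median 701) with 45.6 to 81.4% G+C (median 60.1%), and those of the 28 were 133 to 1807 bp (median 892) with 39.8 to 79.7% (median 63.1%). Whether the low numbers came from the capture of these fragments was not tested. The lack of a call means only that no pair stood in both lists, and it does not show that these promoters had no contact. With distal regions within 1 kb of each other counted as shared, 13 of the 19 ligands had a call in place of 11. The share of all listed genes with a call was not taken under this tolerance.

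Among the receptors, Fzd2 had 73 regions in replicate 1, 134 in replicate 2 and 34 called. As many were reached by 1.84% of genes. They lay on both sides in equal number, 17 upstream and 17 downstream, from 2.52 to 42.7 kb, and 20 within 10 kb. Of these regions 15 stood in 5 runs of adjoining fragments, and 30 lay between genes. Hi-C listed 21 regions for Fzd2, the most of the 38 genes, and 9 were among the called ones. At chr11:102494642-102495448, 28.9 kb downstream, 1 region was linked to Fzd2 and to 8 other genes, among them Itga2b, Gpatch8 and Ccdc43.

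Fzd5 had 80 and 119 regions and 18 called, of which 4 were in the Hi-C list. Of its regions 7 lay in the gene itself, and 5 adjoining ones covered 4445 bp at chr1:64778502-64782946. Of the others, 1 lay 181 kb upstream in Plekhm3 and 1 lay 118 kb downstream. Fzd9 had 104 and 99 regions and 16 called, 4 of them in the Hi-C list. Its contacts lay from 2.54 to 74.4 kb, with none in the 2.29 kb gene, 3 in Baz1b and 3 in Fkbp6. The promoter fragment listed for Fzd9 had 133 bp, 79.7% G+C and 0 annotated start sites. The authors' combined list gave the same 16 regions with the adjoining fragment in its place. Fzd7 had 40 and 59 regions and 12 called, all within 31.0 kb and 8 of them upstream.

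Lrp6, which encodes a co-receptor, had 78 regions in replicate 1, 18 in replicate 2 and 10 called, 5 of them in its introns and none in the Hi-C list. Fzd8 had 30 and 50 with 6 called, all within 6.32 kb. Fzd4 had 22 and 12 with 3 called, and Fzd1 3 and 40 with 2. Lrp5 had 8 and 22 with 2, of which 1 was the fragment that adjoins its promoter fragment, 1.06 kb from midpoint to midpoint. Fzd6 had 10 and 3 with 1 called, 197 kb upstream and linked to Baalc too. The promoter fragment listed for Fzd6 held 0 annotated start sites. Fzd3 had 2 and 1 and none called, since the replicates listed it with different promoter fragments. With the promoter fragment disregarded, Fzd3 also had a region in both lists and all 11 receptors had a contact. The share of all listed genes with a contact was not taken under this rule.

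Of the intracellular genes, Tcf7, which encodes TCF1, had 51 and 92 regions and 14 called, the only one of this class with at least 10. They reached from 2.19 to 58.4 kb, with 8 upstream. Of these, 3 overlapped exons of A630014C17Rik next to the promoter, 3 were in the Hi-C list, and the one 57.6 kb upstream was linked to Vdac1 as well. Apc, a scaffold of the degradation complex, had 58 and 55 regions with 6 called, from 4.49 to 39.8 kb. Tcf7l2, which encodes TCF4, had 24 and 34 regions over 5 promoter fragments. Its 6 called pairs came from all of these fragments except that at chr19:55816885-55817626. A region at chr19:55993299-55994233, overlapping an exon of Tcf7l2, was called with 3 of these fragments, at 20.5, 24.0 and 26.2 kb. The fragment at 24.0 kb, chr19:55969702-55969924, held 0 annotated start sites. Lef1 had 36 and 16 with 5 called, 4.04 to 24.5 kb away. Tcf7, Tcf7l2 and Lef1 each had called regions in their own introns, as did every other intracellular gene with a call.

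Axin1 had 37 and 23 regions with 4 called. One lay 156 kb upstream in 1700022N22Rik and was linked to 11 other genes, Decr2, Jmjd8 and Pigq among them. It came from the promoter fragment at chr17:26279140-26279835, which held 0 annotated start sites. The other 3 came from that at chr17:26275252-26276173, which held 4. Ctnnb1 had 17 and 14 with 1 called, 7.87 kb downstream in an intron. Axin2, a negative feedback target of the pathway, had 2 and 0 and none called. Its 2 regions came from internal promoter fragments, and the fragment with its first annotated start site, at chr11:108781277-108781688, was listed by Hi-C alone. Gsk3b had 1 and 17 with 1 called, 10.6 kb downstream of an internal fragment in an intron. The fragment of its main start site, at chr16:38088462-38089951, was listed mostly under the name BC031361. Under either name it had 38 regions in replicate 1, 76 in replicate 2 and 11 in both. Matched by position in place of name, Gsk3b had 12 called regions, and this rule was chosen after the data were seen.

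Across the 38 genes, replicate 2 listed 19.8% of the pairs of replicate 1 (17.5 to 22.2%), against 19.0% over all genes. Replicate 1 listed 18.3% of those of replicate 2 (16.2 to 20.5%), against 17.1% over all genes. The receptors had 23.1% of their replicate 1 pairs in replicate 2 (19.3 to 27.3%), the ligands 18.3% (14.9 to 22.0%) and the intracellular genes 16.4% (11.8 to 21.9%). In the other direction the order was not the same, with 19.8% of the replicate 2 pairs of ligands in replicate 1 (16.1 to 23.8%), 18.7% of those of receptors (15.5 to 22.2%) and 14.7% of those of intracellular genes (10.6 to 19.7%). For Fzd2 the shares were 46.6 and 25.4%. Pairs from the same fragment are not independent, so these intervals are narrower than the true error.

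The called contacts were nearer than those of either list. The median distance was 10.0 kb for the 227 pairs and 10.3 kb for all called pairs, against 23.5 kb over the genes' pairs in replicate 1 and 99.5 kb in replicate 2. It was 16.3 kb for ligands (quartiles 6.35 and 64.6 kb), 7.84 kb for receptors (4.76 and 18.6 kb) and 10.9 kb for intracellular genes (7.50 and 26.2 kb). As stated, the ligand value depended on Wnt9a. Of the pairs in replicate 2, 227 (18.3%) were over 1 Mb, and 3 (0.262%) in replicate 1. The farthest called contact was that of Wnt1 at 275 kb. Beyond 100 kb lay 17 pairs of ligands, 4 of receptors and 1 of an intracellular gene. Among pairs over 15 kb the order of the classes changed, with 44 called for ligands and 31 for receptors. Of the 44, 26 were of Wnt9a, and without it the other ligands had 18, fewer than the receptors.

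**Figure D2:**
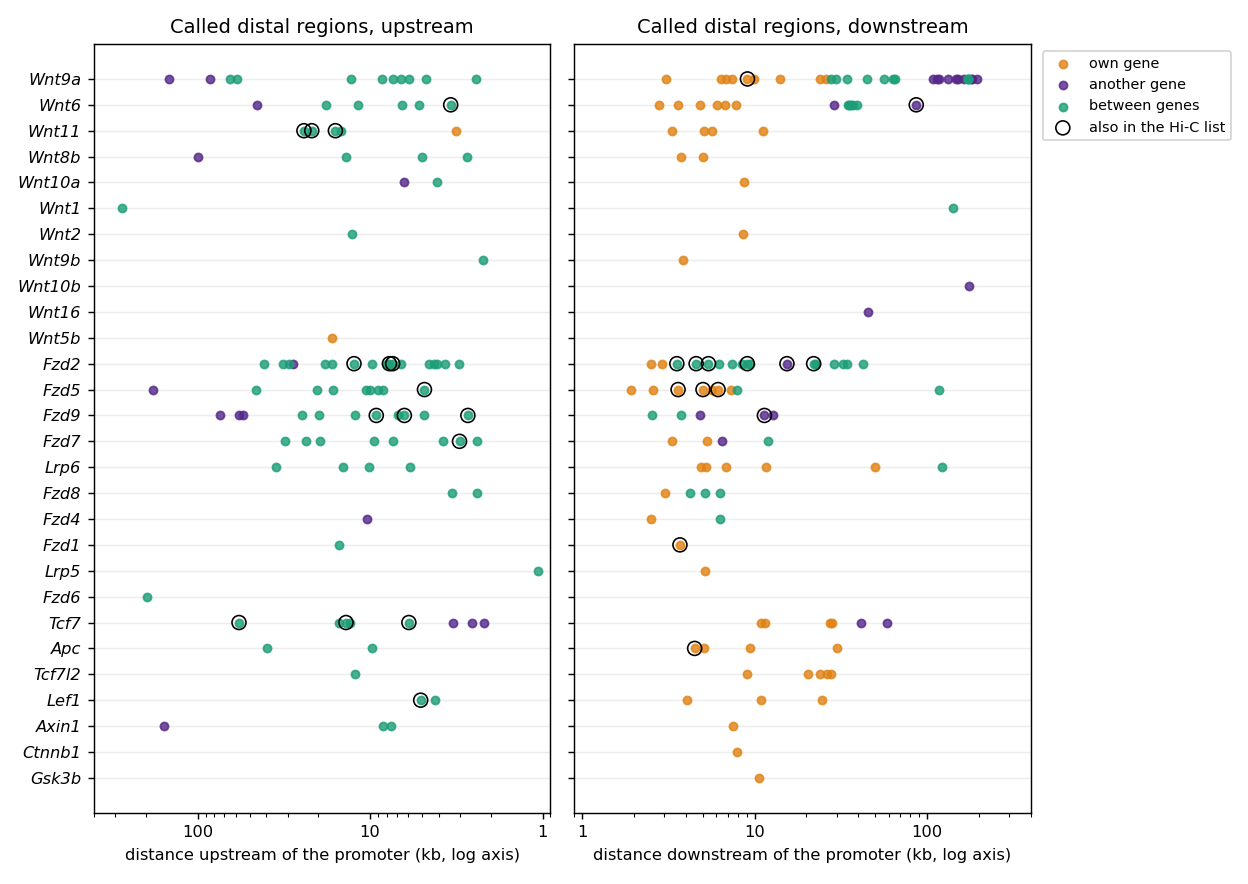
Distance of each of the 227 called pairs (kb, log axis) upstream in the left panel and downstream in the right, by gene, with colours for regions in the gene itself, in another gene or between genes, and rings for pairs that the Hi-C list holds too. Wnt9a spreads from 2.44 to 196 kb, and the contacts of Wnt1, Wnt10b and Fzd6 lie only beyond 100 kb.

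**Figure D3:**
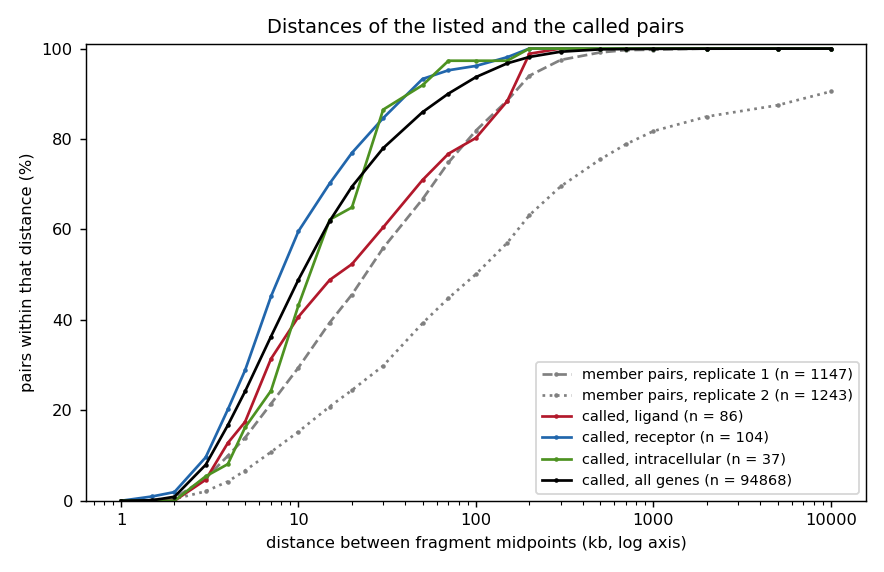
Share of pairs (%) within a given distance (kb, log axis) for the pathway's pairs in each replicate list (grey), its called pairs by class (coloured) and the called pairs of all genes (black). Receptor contacts have the shortest median, 7.84 kb, and the replicate 2 list has a long tail with 18.3% of its pathway pairs over 1 Mb.

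The called regions of receptors lay mostly outside genes. Of the receptor pairs, 73 of 104 were between genes (70.2%, 60.4 to 78.8%), against 34.9% of all called pairs of annotated genes. Of the 73, 30 were of Fzd2. Since pairs from the same fragment are not independent, the intervals are narrower than the true error. For ligands the number was 41 of 86 (47.7%, 36.8 to 58.7%) and for intracellular genes 12 of 37 (32.4%, at most 49.8%). In the body of the gene itself lay 19 of 37 intracellular pairs (51.4%, 34.4 to 68.1%), 26 of 86 ligand pairs (30.2%, 20.8 to 41.1%) and 20 of 104 receptor pairs (19.2%, 12.2 to 28.1%), against 31.8% of all. With the Tcf7l2 region that 3 promoter fragments contacted counted once, a count chosen after the data were seen, 17 of 35 intracellular regions (48.6%) lay in the gene itself. The genes differed in length too, since Fzd1, Fzd2, Fzd4, Fzd5, Fzd7, Fzd8 and Fzd9 span 2.29 to 7.19 kb and the intracellular genes 30.4 to 192 kb, and the part of length in these shares was not tested. The fewest lay in another gene, 36 of 227 (15.9%) against 33.3% of all called pairs.

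**Figure D4:**
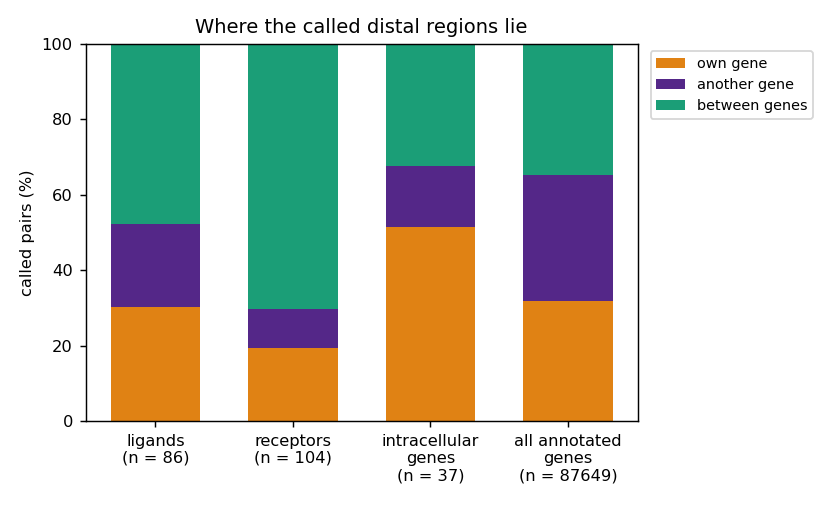
Share of called pairs (%) whose distal region overlaps the gene itself, another gene or no gene, stacked for the 3 classes and for all annotated genes, with the number of pairs under each bar. Receptors have the largest part between genes, 70.2%, and intracellular genes the largest part in their own body, 51.4%.

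The Wnt pathway regions were mostly linked to 1 gene. Of the 227 pairs, 30 (13.2%) were with a region that another gene contacted as well, against 32.8% of all called pairs of annotated genes. No other captured gene's promoter lay between promoter and region for 175 pairs (77.1%), against 71.0%. The gene was the nearest captured one to the region for 151 pairs (66.5%), against 57.6%. This was so for 76 receptor pairs (73.1%), 28 intracellular (75.7%) and 47 ligand pairs (54.7%), of which Wnt9a gave 17 of 40. Upstream lay 32 of the 86 ligand (37.2%), 55 of the 104 receptor (52.9%) and 16 of the 37 intracellular pairs (43.2%), against 47.8% of all. In runs of adjoining fragments stood 37 receptor regions (35.6%), 18 ligand regions (20.9%) and 6 of the intracellular genes (16.2%). Of the 37, 15 were of Fzd2. The share in runs was not taken over all called regions, so these values describe the Wnt pathway genes only.

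In 4 cases 2 Wnt genes had captured promoters within 100 kb of each other, and none of them shared a called region. Wnt3 and Wnt3a had 0 called regions, so their pairs could share none. The share among all neighbouring captured genes was not taken, so the lack of sharing describes these Wnt pairs only. Wnt3a and Wnt9a lie 15.9 kb apart and had 0 and 40 called regions, and they shared 1 region in replicate 1. Wnt10a and Wnt6 lie 19.7 kb apart and had 3 and 19. Of the Wnt6 regions, 7 were past the Wnt10a promoter. One of these overlapped an exon of Wnt10a, at chr1:74846891-74847815, and began at the base after the intronic Wnt10a region shown above, while a Wnt10a region in turn overlapped an exon of Wnt6. Another 5 lay between genes 34.7 to 39.2 kb from the Wnt6 promoter. In single lists Wnt10a and Wnt6 shared 6 regions in replicate 1, 4 in replicate 2 and 1 in Hi-C.

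Wnt1, which has a well-known part in the midbrain, and Wnt10b lie 11.4 kb apart and shared 4 regions in replicate 1, 1 in replicate 2 and 1 in Hi-C. Wnt1 had 7 and 4 regions with 2 called, at 141 and 275 kb. Wnt10b had 24 and 4 with 1 called, at 175 kb in an intron of Adcy6. All 3 regions were contacted by other genes too. The one at chr15:98344912-98345461 was linked to 11 others, among them Cacnb3, Rnd1 and Senp1, and the one at chr15:98760853-98761637 to Dhh, Mll2 and tubulin genes. The Wnt10b region was linked to Cacnb3 and Rnd1 as well. Wnt3 and Wnt9b lie 24.1 kb apart and had 0 and 2 called regions in HiCap. In the Hi-C list they had 7 and 15, and none of these was called in HiCap.

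**Figure D5:**
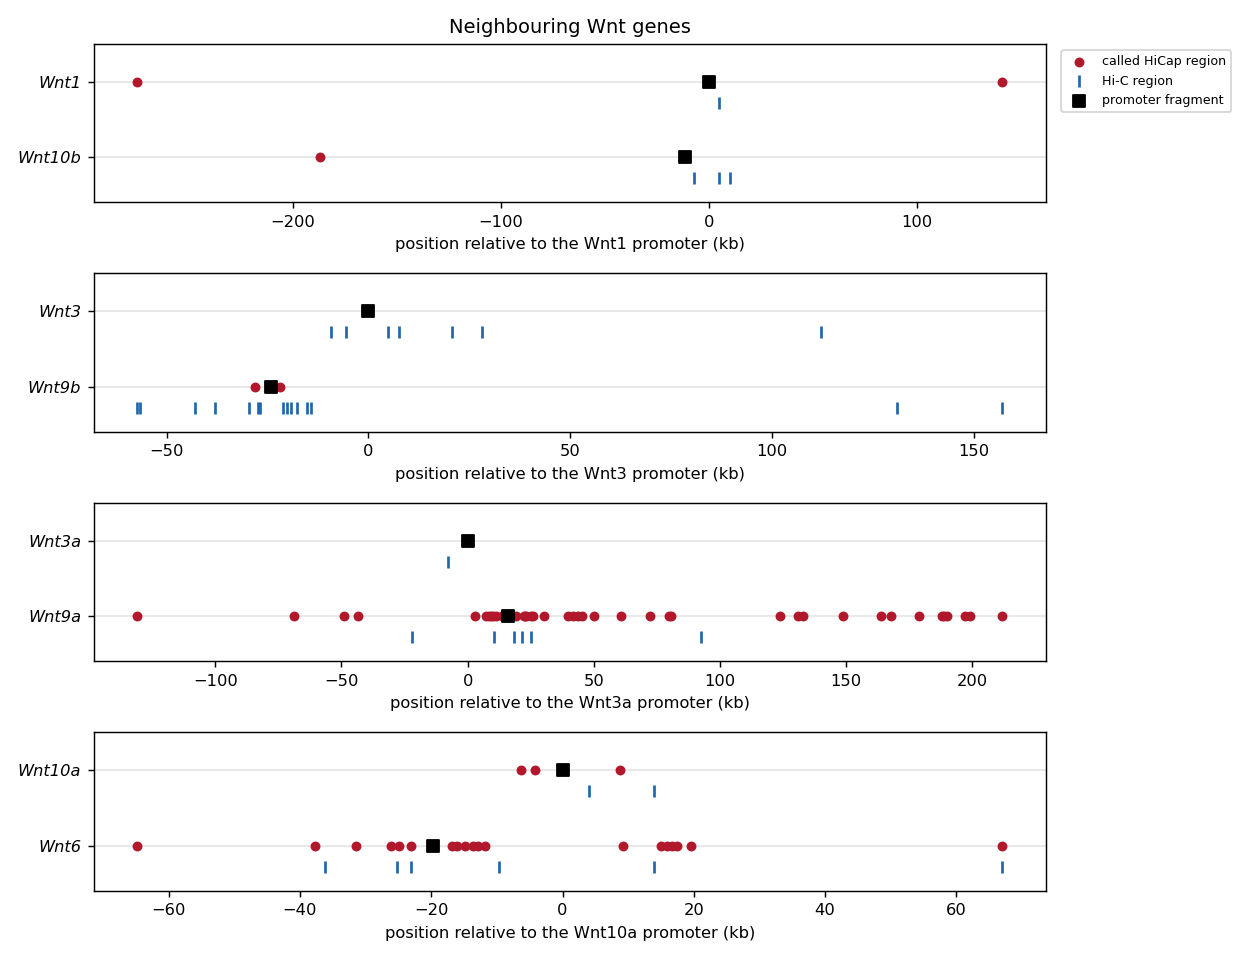
Called HiCap regions (red points), Hi-C regions (blue ticks) and promoter fragments (black squares) of the 4 neighbouring Wnt pairs, by position in kb relative to the promoter of the upper gene. Wnt9a has 40 called regions beside 0 for Wnt3a, and the 15 Hi-C regions of Wnt9b stand beside 2 called ones.

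The Hi-C list, made without the capture step, was used as a further readout. It held 30 of the 227 called pairs (13.2%, 9.10 to 18.3%), against 12.5% of all called pairs. For receptors it held 19 of 104 (18.3%, 11.4 to 27.1%), for intracellular genes 5 of 37 (13.5%, 4.54 to 28.8%) and for ligands 6 of 86 (6.98%, 2.60 to 14.6%). Of the 19 for receptors 9 were of Fzd2. Wnt9a had 1 of its 40 pairs in Hi-C, and without it the ligand share was 5 of 46 (10.9%, 3.62 to 23.6%). The called pairs with a Hi-C match came from 11 genes. Read the other way, Hi-C listed 144 pairs for 36 of the genes, all but Wnt2 and Lrp5. Both HiCap lists held 30 of these (20.8%) and neither held 71 (49.3%), against 15.8 and 60.6% over all Hi-C pairs. Both lists held 41.3% of the receptor pairs of Hi-C, 15.2% of the intracellular and 9.23% of the ligand pairs. All 10 genes without a HiCap call stood in the Hi-C list, with 24 pairs in all. The Hi-C list named 16947 genes, beside the 21202 of the HiCap lists. Its share of all genes without a HiCap call was not taken.

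The rest of the pathway was described with 7 lists of genes, chosen with earlier results of these data known. Of 77 listed genes 58 had a called contact (75.3%), with a median of 3 called regions, beside 60.7% and a median of 1 over all listed genes. All 11 nuclear partners had one (median 5), as did 14 of 15 cytoplasmic transducers (median 4). In the first, Tcf7l1, the main repressing TCF factor of mESCs, had 150 and 93 regions in the replicates and 39 called, and Bcl9l, a beta-catenin cofactor, 105 and 48 with 29. In the second, Csnk1a1, the kinase that primes beta-catenin, had 168 and 117 with 50, and Csnk1d 68 and 81 with 20. Of the common target genes 11 of 14 had a call (median 2), led by Cdh1 with 124 and 136 regions and 53 called and Ccnd1 with 200 and 149 and 35 called.

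Of the secreted inhibitors 8 of 14 had one (median 1), of the R-spondin branch 5 of 8 (median 5), of planar cell polarity and alternative receptors 7 of 12 (median 1), and of ligand secretion and modification 2 of 3, beside the 60.7% and median of 1 of all genes. Sost had 69 and 118 regions with 23 called, and Kremen1, which codes for a DKK receptor, 61 and 77 with 16. Rnf43, a ubiquitin ligase that removes Frizzled from the surface, had 90 and 89 with 21, and Rspo4 34 and 47 with 8. Prickle2 had 64 and 65 with 6, and Celsr1 18 and 51 with 3. Notum, which inactivates Wnt by removing its lipid, had 29 and 38 with 9, and Wls, the Wnt carrier, 25 and 9 with 6.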

How the data were processed

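HiCap and Hi-C had been carried out on the R1 line, with 2 biological replicates each. Per the labels and the study's methods, the authors mapped each read end on its own to mm9, removed duplicates and short-range pairs, placed the reads on MboI fragments and kept pairs with a minimum of supporting reads. The deposited values are positions of promoter fragments and distal regions, without normalization or read numbers, so precision rests on the numbers of pairs. Of the called distal regions 6.42% held more than 1 fragment. Deposited promoter positions stood 2 bases past the MboI site and were moved back, and positions are given 1-based.

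Pairs were matched by gene name and both fragments, with distances between midpoints and gene positions from GENCODE for mm9 without pseudogenes. Intervals came from scipy, and the matching was tested on simulated lists. Numbers were given for every gene. In each class the 4 genes with the most called regions and those with none had been set for description one by one, and the remaining genes were described too. Genes of the further lists are named where they were the 2 with the most, and others where they shared or held a region. Members and lists were chosen with earlier results of these data known. Alternatives were each replicate alone, the authors' combined list, a 1 kb tolerance, any promoter fragment of the gene, pairs over 15 kb or up to 1 Mb, merged regions and fragments matched by position.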

Additional observations from a re-analysis of the deposited data

How the results depend on the processing

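With all pairs of 1 HiCap list in place of the shared ones, 15 to 19 ligands had a contact, ligand pairs numbered 435 to 471, receptor pairs 450 to 557 and intracellular pairs 226 to 251, the median distance was 23.5 to 99.5 kb, and 3.22 to 5.49% of pairs were in the Hi-C list. Of all 21202 listed genes, replicate 1 named 20036 and replicate 2 named 18550. A tolerance of 1 kb raised the called pairs to 231 for ligands, 255 for receptors and 110 for intracellular genes, raised the share of replicate 1 pairs found in replicate 2 to 52.0%, and brought the Hi-C share to 8.22%. Over 15 kb there were 44, 31 and 14 pairs in the same order, with a median distance of 39.2 kb, a replicate share of 12.8% and a Hi-C share of 7.87%. The numbers of genes with a call, 11 ligands, 10 receptors and 7 intracellular genes, were the same in the combined list, with pairs up to 1 Mb, with merged regions and with fragments matched by position, and with any promoter fragment of the gene 11 receptors had one. For all listed genes, the share with a call was not taken with any promoter fragment of the gene. The combined list gave 21 of the 227 pairs, all of Fzd6, Fzd9 and Tcf7l2, another promoter fragment, which was an adjoining one for 18. Fragments matched by position, a rule added after the data were seen, moved Gsk3b from 1 to 12 called regions and intracellular pairs from 37 to 48. No paired analysis was possible because no test was made and the Hi-C list pools its replicates. The lists hold no read numbers, so the depth behind a gene's contacts is unknown. Without Wnt9a, a setting added after the data were seen, the ligand pairs over 15 kb fell from 44 to 18.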
